A study of Homo sapiens with 30 samples.

Results

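Messenger RNA of 10 genes that are commonly read as markers of the epithelial or the mesenchymal state of a cell was followed in 5637 cells, a human bladder carcinoma cell line. The genes were EPCAM, CDH1, CDH3, CDH2, VIM, FN1, SPARC, TGFBI, TAGLN and CD44. They were taken by name, as 10 of the 60612 genes listed in the knockout count table (matched there by Ensembl identifier) and as 10 of the 56303 genes listed in each of the overexpression and knockdown tables. RNA-seq covered 30 libraries in 10 groups of 3. The knockout table held WT1 and KO1, and WT2 and KO2, where KO1 and KO2 are RBPMS-KO cells made with different sgRNAs. Each WT group was taken here as the control of the KO group of the same number. The sample titles give the group names only, and the study names its control sgCtrl for both sgRNAs. RBPMS is an RNA-binding protein that regulates splicing. The overexpression table held Vector (vector only), ANKRD10-1 and ANKRD10-2, which received plasmids for either of the protein isoforms of ANKRD10. The knockdown table held siNC (control siRNA), siANKRD10-1 and siANKRD10-2, with siRNAs against the transcripts of either isoform. The study describes ANKRD10-1 overexpression and siANKRD10-2 knockdown in RBPMS-KO cells, while the labels give 5637 for all 30 libraries and 1 control group per table, so an effect of the cell background and an effect of the isoform cannot be told apart in these groups. The study speaks of a single-clone expansion of its knockout populations, so an effect of RBPMS loss and a property of a clone cannot be told apart within KO1 or KO2. Nothing says that the 3 libraries of a group came from separate cultures, so the p-values measure the spread between these libraries, which may be technical.

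Epithelial cells hold to each other through E-cadherin (CDH1), P-cadherin (CDH3) and the adhesion molecule EpCAM, and rest on a basement membrane. In an epithelial-mesenchymal transition, cells typically lose E-cadherin, may gain N-cadherin (CDH2), replace part of their keratin filaments with vimentin (VIM) and secrete more matrix, such as fibronectin (FN1). Bladder carcinomas can hold any mixture of these features, so the markers are read here gene by gene. On GRCh38, with GENCODE v29 gene bounds, VIM lies at chr10:17228259-17237593 (plus strand), CDH2 at chr18:27950966-28177446 (minus strand), FN1 at chr2:215360440-215436172 (minus strand) and CDH1 at chr16:68737225-68835548 (plus strand), and counts were taken over whole genes.

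The libraries held 44593108 to 69723937 counts in the knockout table, 31736779 to 47493499 in the overexpression table and 28511029 to 32784584 in the knockdown table. Levels are given in CPM, the counts of a gene scaled to a common library total (edgeR, with TMM factors). RBPMS stood at 14.3 to 21.3 CPM in the 6 RBPMS-KO libraries and at 39.0 to 44.2 CPM in the 6 WT libraries, so its transcript was lower but not absent. RBPMS stood at 3.57 to 6.28 CPM in all 9 libraries of the overexpression table and at 4.53 to 5.87 CPM in all 9 of the knockdown table, with no call of a difference in ANKRD10-1 against Vector (adjusted p = 0.472) or in siANKRD10-2 against siNC (adjusted p = 0.894). ANKRD10 counts of all its transcripts were 1.59-fold higher in ANKRD10-1 and 1.33-fold higher in ANKRD10-2 than in Vector. They were 1.18-fold and 1.19-fold lower in siANKRD10-1 and siANKRD10-2 than in siNC. The 14 urothelial and epithelial markers, which include CDH1 and EPCAM, summed to 2940 to 5770 CPM per library. The uroplakins UPK1A and UPK3A, which mark the umbrella cells of the bladder lining, still had at most 3 counts in any library. Leukocyte markers summed to at most 2.43 CPM in the knockout table, where PTPRC and CD3E were at 0 counts in all 12 libraries, and to at most 24.3 CPM in the other tables. Smooth muscle markers summed to at most 18.4 CPM and endothelial markers to at most 3.4 CPM in any library.

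RefSeq promoter windows on GRCh38.p14 were at hand for 6 of the 10 genes (FN1, TGFBI, SPARC, VIM, CD44 and CDH2), in 7 windows. They were searched on both strands, over 250 bases before each start site, for CACGTG (the E-box named in the study, which reads the same on both strands), CAGGTG (an E-box form bound by SNAI and ZEB repressors) and TATAAA. The first of these was found in 0 of the 7 windows and in 6.34% of all 35116 promoter windows. The second was found in 0 of the 7 windows and in 17.5% of all windows, and the last in 1 of the 7 windows and in 10.7% of all windows. The 30 bases from 45 to 16 bases before a start site are shown for VIM, which had the largest rise in the knockouts, and for the downstream of the CDH2 start sites, since CDH2 moved in opposite directions in the knockouts. Capitals mark TATAAA. The positions are chr10:17228196-17228225 (plus strand) for VIM and chr18:28036657-28036686 (minus strand) for CDH2, and no GENCODE v29 exon overlaps them.
VIM: ggcggggactctgcaagaaaaaccttcccg
CDH2: tcagtattccagtTATAAAaagctgcatcg
A match describes these letters only. Counts per gene do not show which start site was used.

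Compared per length of their annotated exons, FN1 had the highest mean of the 10 genes, overlapping EPCAM in siNC alone, and SPARC or TAGLN lowest in each of the 10 groups. In WT1 the mean level fell from 107 CPM per kb for FN1 through 49.0 for EPCAM, 34.6 for CDH1, 26.4 for CD44, 22.8 for CDH3, 20.1 for TGFBI and 15.1 for CDH2 to 0.868 for VIM, 0.518 for SPARC and 0.227 CPM per kb for TAGLN, with no overlap between neighbours in this order. WT2 had the same order, and there CD44 (23.6 CPM per kb) and CDH3 (22.6 CPM per kb) overlapped. The control cells thus carried abundant epithelial adhesion transcripts together with fibronectin, and little vimentin. VIM was at 5.25 CPM per kb in Vector and 2.13 CPM per kb in siNC, above the WT groups, although the tables were counted separately and no test was made across them.

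**Figure D1:**
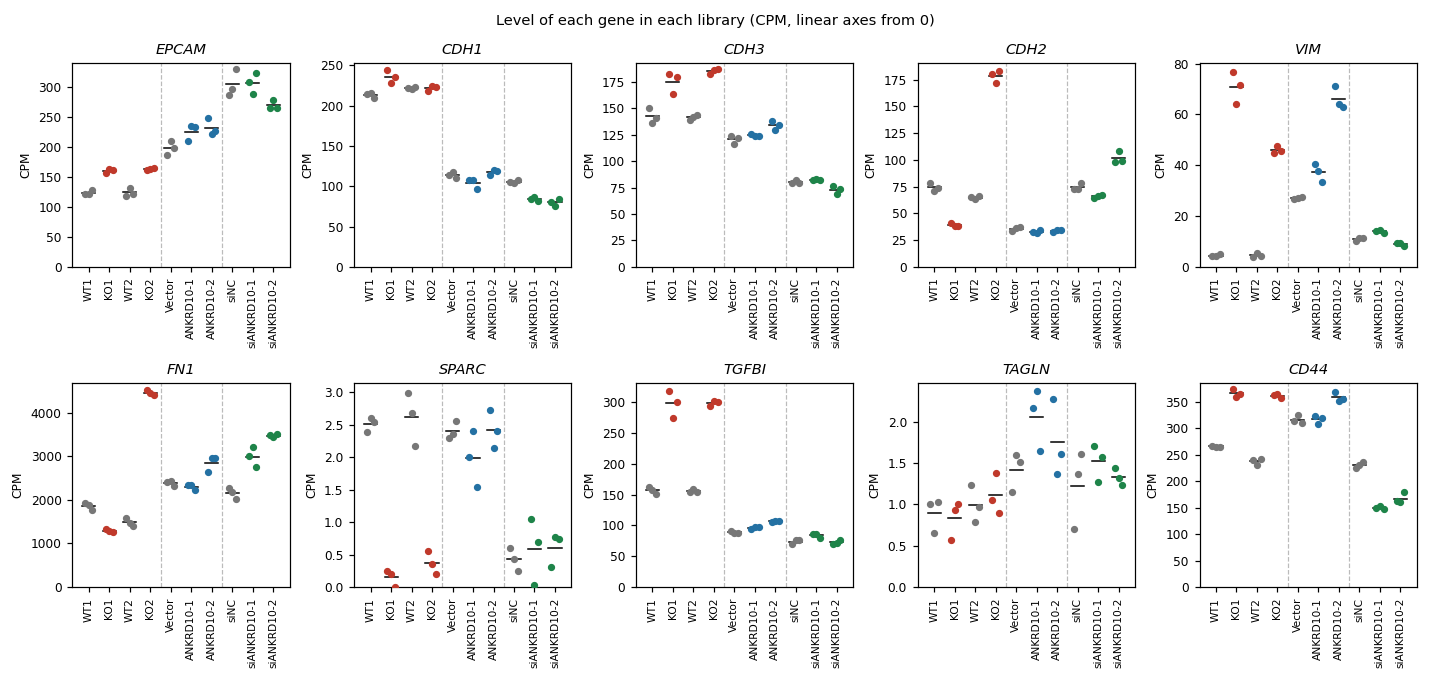
Level of each of the 10 genes in each of the 30 libraries, in CPM on linear axes from 0. Points are libraries, black bars are group means, dashed lines separate the 3 count tables, and colours mark control groups (grey), RBPMS-KO (red), ANKRD10 overexpression (blue) and ANKRD10 knockdown (green). VIM stood at 3.91 to 5.31 CPM in the WT libraries and at 44.8 to 76.6 CPM in the RBPMS-KO libraries.

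The first question was how these markers stood after loss of RBPMS. In KO1, 6 of the 10 genes were higher and 3 lower than in WT1, and in KO2, 7 were higher and 1 lower than in WT2. VIM, TGFBI, CD44, EPCAM and CDH3 rose and SPARC fell in both knockouts, whereas CDH2 and FN1 moved in opposite directions. All 10 genes passed the filter on low counts in every comparison. A gene was called at an adjusted p under 0.05 in edgeR's quasi-likelihood test, adjusted by Benjamini-Hochberg across every gene that passed the filter. Among all 17865 genes tested in KO1, 17.9% were called higher and 18.2% lower, and among all 18267 genes tested in KO2, 19.3% were called higher and 19.2% lower. The median log2 fold change of the 10 genes was 0.22 in KO1, beside -0.0020 for all genes, and 0.50 in KO2, beside -0.016 for all genes.

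The epithelial adhesion genes were not lower in either knockout. EPCAM, whose product joins epithelial cells without calcium, stood at 121, 121 and 128 CPM in WT1 and at 156, 163 and 161 CPM in KO1. In WT2 it stood at 118, 131 and 122 CPM and in KO2 at 161, 163 and 165 CPM. Every knockout library was above every control library, and EPCAM rose 1.30-fold in KO1 (log2 fold change 0.37 ± 0.047 SE, adjusted p = 0.000124) and 1.31-fold in KO2 (0.39 ± 0.043, adjusted p = 1.85e-05). CDH3, the P-cadherin of basal epithelial cells, rose 1.23-fold in KO1 (from 142 ± 7.38 to 175 ± 10.1 CPM, mean ± SD, n = 3; adjusted p = 0.00203) and 1.31-fold in KO2 (from 141 ± 2.34 to 185 ± 2.24 CPM; adjusted p = 3.37e-06). CDH1, the E-cadherin of adherens junctions, stood at 215, 216 and 210 CPM in WT1 and at 244, 228 and 235 CPM in KO1. It was called 1.10-fold higher in KO1 (log2 fold change 0.14 ± 0.045 SE, adjusted p = 0.0276), a call that was lost without WT1 replicate 1, 2 or 3 or KO1 replicate 1 or 3 (adjusted p up to 0.102) and with no filter on low counts (adjusted p = 0.0657). In KO2, CDH1 stood at 218, 224 and 223 CPM against 221, 220 and 223 CPM in WT2. The KO2 and WT2 libraries overlapped, and the log2 fold change was -0.0043 with a 95% interval from -0.074 to 0.066 (adjusted p = 0.933).

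CDH2, the N-cadherin of mesenchymal and neural cells, fell in KO1 and rose in KO2. It stood at 78.1, 71.3 and 74.1 CPM in WT1 and at 40.8, 38.1 and 38.0 CPM in KO1, a 1.91-fold fall (log2 fold change -0.94 ± 0.059 SE, adjusted p = 8.59e-07). In WT2 it stood at 64.9, 63.2 and 66.0 CPM and in KO2 at 180, 172 and 183 CPM, a 2.75-fold rise (1.46 ± 0.041, adjusted p = 1.28e-10). No library of either knockout overlapped its controls, and the KO1 libraries were the lowest and the KO2 libraries the highest of the 12.

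VIM, the intermediate filament protein of mesenchymal cells, had the largest rise of the 10 genes in each knockout. It stood at 4.32, 4.21 and 4.91 CPM in WT1 and at 76.6, 64.0 and 71.6 CPM in KO1. In WT2 it stood at 3.91, 5.31 and 4.33 CPM and in KO2 at 44.8, 47.5 and 45.5 CPM. The groups were far apart, and VIM rose 15.7-fold in KO1 (log2 fold change 3.98 ± 0.094 SE, adjusted p = 2.81e-09) and 10.2-fold in KO2 (3.35 ± 0.097, adjusted p = 1.86e-10). In KO1 it passed CDH2 in level per length, with 13.7 against 7.87 CPM per kb and no overlap. In KO2 it stayed below CDH2, with 8.90 against 36.0 CPM per kb.

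Of the matrix genes, FN1 divided the knockouts as CDH2 did. FN1, which encodes fibronectin, stood at 1930, 1876 and 1777 CPM in WT1 and at 1336, 1280 and 1266 CPM in KO1, a 1.44-fold fall (log2 fold change -0.53 ± 0.045 SE, adjusted p = 7.84e-06). It stood at 1586, 1464 and 1408 CPM in WT2 and at 4514, 4442 and 4417 CPM in KO2, a 2.99-fold rise (1.58 ± 0.037, adjusted p = 4.06e-11). Against all 6 WT libraries the fall in KO1 was smaller (log2 fold change -0.37, adjusted p = 0.00305). TGFBI, a secreted matrix protein induced by TGF-beta, stood at 152 to 162 CPM in the 6 WT libraries, at 319, 275 and 301 CPM in KO1 and at 294, 303 and 300 CPM in KO2. It rose by near equal amounts, 1.90-fold in KO1 (log2 fold change 0.92 ± 0.058 SE, adjusted p = 8.59e-07) and 1.91-fold in KO2 (0.93 ± 0.033, adjusted p = 1.26e-09).

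SPARC, a matrix protein abundant in fibroblasts and endothelium, was rare in these cells and fell in both knockouts. It had 124, 140 and 171 counts in WT1 (2.38, 2.60 and 2.53 CPM) and 16, 9 and 0 counts in KO1 (0.241, 0.205 and 0 CPM). In WT2 it had 201, 149 and 154 counts and in KO2 31, 18 and 13 counts. The groups did not overlap, and the fitted falls were 16.3-fold in KO1 (log2 fold change -4.03 ± 0.61 SE, adjusted p = 0.000397) and 7.06-fold in KO2 (-2.82 ± 0.35, adjusted p = 5.21e-05). Their 95% intervals, from -5.37 to -2.69 and from -3.59 to -2.05 on the log2 scale, were wide at these counts. The 9 fibroblast markers summed to 66.9 to 69.2 CPM in WT1 and 34.5 to 41.1 CPM in KO1, and to 68.6 to 71.8 CPM in WT2 and 75.5 to 78.4 CPM in KO2, of which COL1A1 (mean 46.2 CPM over the knockout table) and THY1 (13.7 CPM) made up most. Of the other 7 markers, LUM reached 320 counts, PDGFRB 121, PDGFRA 48 and DCN 27, and COL1A2, COL3A1 and FAP at most 9 counts in any library of that table. Of these 9 markers 5 were tested, with 1 higher and 4 lower in KO1 and 1 higher and 1 lower in KO2. The shares of all genes called higher and lower were 17.9% and 18.2% in KO1 and 19.3% and 19.2% in KO2. The part of these markers in the SPARC result was not tested. In bulk RNA, fewer cells of a kind and less RNA per cell cannot be told apart.

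TAGLN, an actin-binding protein of smooth muscle, had 35 to 83 counts in the 12 libraries, and its groups overlapped in both comparisons. Its log2 fold change was -0.098 in KO1 (95% interval from -0.90 to 0.71, adjusted p = 0.864) and 0.14 in KO2 (from -0.55 to 0.83, adjusted p = 0.764), so changes inside these intervals were not detectable at this depth. CD44, the hyaluronan receptor found on basal urothelial and on many migrating cells, stood at 267, 265 and 265 CPM in WT1 and at 374, 359 and 365 CPM in KO1, a 1.38-fold rise (log2 fold change 0.46 ± 0.041 SE, adjusted p = 1.13e-05). It stood at 239, 231 and 242 CPM in WT2 and at 362, 364 and 357 CPM in KO2, a 1.52-fold rise (0.60 ± 0.033, adjusted p = 5.19e-08). The knockout libraries lay within 357 to 374 CPM, and the WT1 libraries lay above those of WT2 without a called difference (adjusted p = 0.0631).

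**Figure D2:**
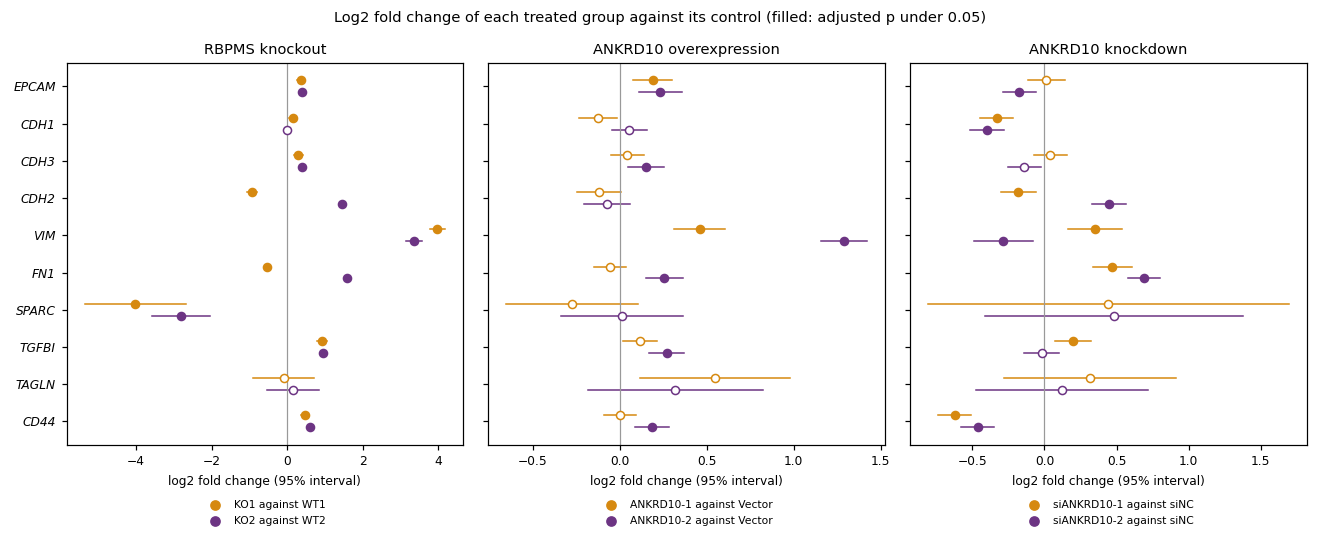
Log2 fold change of each gene in each treated group against its own control group, with its 95% interval (edgeR, n = 3 per group). Filled points have an adjusted p under 0.05, open points do not, and the 3 panels have different scales. VIM reached 3.98 and 3.35 in the knockouts, 0.46 and 1.29 in the overexpression groups and 0.35 and -0.28 in the knockdown groups.

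The knockouts were then compared directly, as the KO1 effect minus the KO2 effect over all 12 libraries. This difference was called for 4 of the 10 genes, beside 23.3% of all 19189 genes tested. It was -2.40 ± 0.069 on the log2 scale for CDH2 (adjusted p = 1.5e-12) and -2.11 ± 0.060 for FN1 (adjusted p = 1.5e-12), the 2 genes with opposite directions. VIM rose more in KO1, by 0.62 ± 0.14 (adjusted p = 0.00365), and the difference for CD44 was -0.14 ± 0.048 (adjusted p = 0.0384). The CD44 call was lost in 10 of the 12 fits that left out a library, all except those without KO1 replicate 1 or WT2 replicate 3, with adjusted p up to 0.0896, as well as with upper-quartile scaling (adjusted p = 0.0572) and with no filter (adjusted p = 0.13). For CDH1 the difference was 0.14 and not called (adjusted p = 0.0508), but it was called with upper-quartile scaling (adjusted p = 0.0423), with DESeq2 (adjusted p = 0.0201) and without KO1 replicate 2 (adjusted p = 0.0195). For TGFBI and EPCAM the differences were -0.013 (95% interval from -0.16 to 0.13) and -0.022 (from -0.15 to 0.11). For SPARC it was -1.21 with an interval from -2.78 to 0.36 (adjusted p = 0.278). Between the control groups, 1 of the 10 genes was called in edgeR, FN1 (WT2 against WT1, log2 fold change -0.32 ± 0.046 SE, adjusted p = 0.00543), beside 1.23% of all 18335 genes. DESeq2 also called CDH2 (-0.20, adjusted p = 0.00785) and CD44 (-0.16, adjusted p = 0.000734), and CD44 was called with all groups in one fit (adjusted p = 0.0283). FN1 stood at 1861 ± 77.5 CPM in WT1 and 1486 ± 90.7 CPM in WT2, beside 1294 ± 37.4 CPM in KO1 and 4458 ± 50.7 CPM in KO2.

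**Figure D3:**
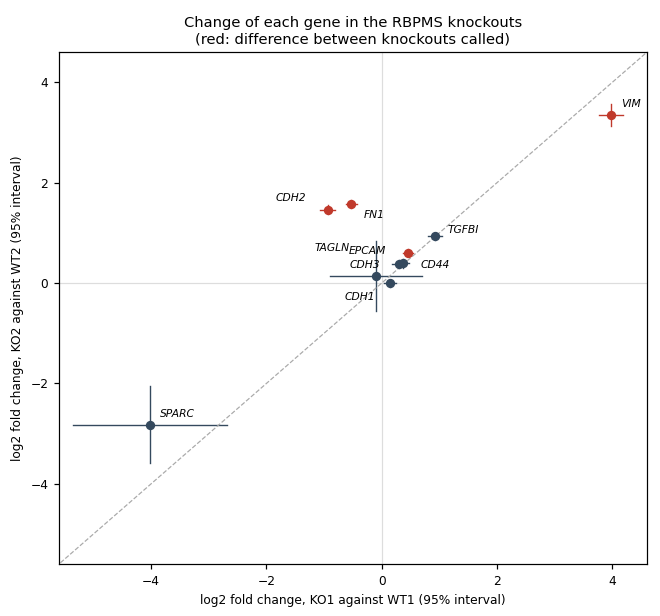
Log2 fold change of each gene in KO1 against WT1 (horizontal axis) and in KO2 against WT2 (vertical axis), with 95% intervals. The dashed line marks equal change, and red points are the 4 genes whose difference between knockouts was called. CDH2 and FN1 lie to the left of 0 and above 0, at -0.94 and 1.46 and at -0.53 and 1.58.

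The second question was what the ANKRD10 isoforms did to these markers when overexpressed. In ANKRD10-1, 2 of the 10 genes were higher than in Vector and 0 lower, beside 3.5% of all 20457 genes called higher and 2.81% lower. In ANKRD10-2, 6 were higher and 0 lower, beside 10.7% and 9.25% of all 20177 genes. DESeq2 and edgeR with RLE or upper-quartile scaling called 0 of the 10 lower as well. At an unadjusted p under 0.05 in edgeR, 1 gene (CDH1) was lower in ANKRD10-1 and 0 in ANKRD10-2. The median log2 fold change of the 10 genes was 0.023 in ANKRD10-1 and 0.21 in ANKRD10-2, beside -0.0035 and -0.0055 for all genes. These comparisons share the Vector libraries.

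VIM was again the gene with the largest called rise. It stood at 26.5, 27.0 and 27.7 CPM in Vector, at 40.4, 37.9 and 33.4 CPM in ANKRD10-1 and at 71.2, 64.2 and 62.9 CPM in ANKRD10-2. The 3 groups did not overlap, and VIM rose 1.37-fold with ANKRD10-1 (log2 fold change 0.46 ± 0.069 SE, adjusted p = 0.000408) and 2.44-fold with ANKRD10-2 (1.29 ± 0.062, adjusted p = 5.22e-09). EPCAM stood at 186, 209 and 198 CPM in Vector, at 209, 234 and 233 CPM in ANKRD10-1 and at 248, 222 and 226 CPM in ANKRD10-2. Neither group overlapped Vector, and it rose 1.14-fold with ANKRD10-1 (adjusted p = 0.0432) and 1.18-fold with ANKRD10-2 (adjusted p = 0.0103). The first call was lost without Vector replicate 1 or ANKRD10-1 replicate 2 or 3 (adjusted p up to 0.186) and with all groups in one fit (adjusted p = 0.0668), and the second without Vector replicate 1 (adjusted p = 0.0666).

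With ANKRD10-2, FN1 rose from 2390 ± 63.6 to 2852 ± 177 CPM (1.19-fold, adjusted p = 0.00286), TGFBI from 89.0 ± 2.33 to 107 ± 0.853 CPM (1.21-fold, adjusted p = 0.00117) and CD44 from 316 ± 7.58 to 359 ± 8.66 CPM (1.14-fold, adjusted p = 0.0101). CDH3 was called 1.11-fold higher (121 ± 4.03 to 134 ± 4.16 CPM, adjusted p = 0.0451), at the edge of the threshold. Without Vector replicate 1 the CD44 call was lost (adjusted p = 0.0505), and the CDH3 call was lost in 5 of the 6 fits that left out a library, all except the one without ANKRD10-2 replicate 2 (adjusted p up to 0.171), with upper-quartile scaling (adjusted p = 0.0525) and with no filter (adjusted p = 0.0768). CDH1 and CDH2, the cadherins most used as opposite markers, were called in neither overexpression group. CDH1 had log2 fold changes of -0.13 with ANKRD10-1 (95% interval from -0.24 to -0.017) and 0.056 with ANKRD10-2 (from -0.046 to 0.16), and CDH2 had -0.12 (from -0.25 to 0.0057) and -0.073 (from -0.20 to 0.059). SPARC had 62 to 124 counts and TAGLN 42 to 109 counts per library of this table, and neither was called.

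ANKRD10-2 compared directly with ANKRD10-1 differed in 3 of the 10 genes, all higher, beside 7.26% of all 20052 genes called in either direction. VIM was 1.77-fold higher (log2 fold change 0.83 ± 0.070 SE, adjusted p = 2.29e-07), FN1 1.24-fold higher (0.31 ± 0.053, adjusted p = 0.000773) and CD44 1.13-fold higher (0.18 ± 0.050, adjusted p = 0.0295). The CD44 call was lost without ANKRD10-1 replicate 1, 2 or 3 or ANKRD10-2 replicate 3 (adjusted p up to 0.149). DESeq2 also called CDH1 (0.18, adjusted p = 0.0316) and TGFBI (0.16, adjusted p = 0.0337) higher, and CDH1 was called with all groups in one fit (adjusted p = 0.0455) and without ANKRD10-2 replicate 1 (adjusted p = 0.0341). The ANKRD10 counts themselves were 197 ± 11.4 CPM in ANKRD10-2 and 237 ± 4.64 CPM in ANKRD10-1 (adjusted p = 0.00355).

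The third question was what knockdown of either isoform did. In siANKRD10-1, 3 of the 10 genes were higher and 3 lower than in siNC, beside 5.08% of all 18785 genes called higher and 5.52% lower. In siANKRD10-2, 2 were higher and 4 lower, beside 17.6% and 18.7% of all 18924 genes. The median log2 fold change of the 10 genes was 0.12 in siANKRD10-1 and -0.080 in siANKRD10-2, beside 0.0035 and 0.0011 for all genes. CDH1 and CD44 fell and FN1 rose in both, and these comparisons share the siNC libraries.

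CDH1 stood at 104.7, 104.01 and 108.2 CPM in siNC, at 84.0, 86.3 and 81.5 CPM in siANKRD10-1 and at 80.8, 75.0 and 84.6 CPM in siANKRD10-2. Both knockdown groups lay below siNC, by 1.26-fold (log2 fold change -0.33 ± 0.055 SE, adjusted p = 0.000734) and 1.32-fold (-0.40 ± 0.056, adjusted p = 3.33e-06). CD44 stood at 224, 231 and 237 CPM in siNC, at 149, 153 and 147 CPM in siANKRD10-1 and at 163, 160 and 179 CPM in siANKRD10-2. It fell 1.54-fold (-0.62 ± 0.054, adjusted p = 5.22e-07) and 1.38-fold (-0.46 ± 0.055, adjusted p = 2.27e-07). FN1 stood at 2278, 2169 and 2017 CPM in siNC, at 3000, 3215 and 2743 CPM in siANKRD10-1 and at 3479, 3432 and 3515 CPM in siANKRD10-2. It rose 1.39-fold (0.47 ± 0.063, adjusted p = 9.52e-05) and 1.61-fold (0.69 ± 0.055, adjusted p = 2.52e-10), with no overlap between the 3 groups. FN1 was thus called higher both with ANKRD10-2 overexpression and with siANKRD10-2, in separate tables.

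VIM and CDH2 moved in opposite directions between the siRNAs. VIM stood at 10.2, 11.4 and 11.3 CPM in siNC, at 13.9, 14.7 and 13.4 CPM in siANKRD10-1 and at 9.37, 9.37 and 8.34 CPM in siANKRD10-2. No group overlapped another, and VIM rose 1.28-fold with siANKRD10-1 (log2 fold change 0.35 ± 0.089 SE, adjusted p = 0.0157) and fell 1.22-fold with siANKRD10-2 (-0.28 ± 0.10, adjusted p = 0.0272). The first call was lost without siNC replicate 1 or siANKRD10-1 replicate 1 (adjusted p up to 0.0897). The second was lost without siNC replicate 2 or 3 or siANKRD10-2 replicate 3 (adjusted p up to 0.127), with upper-quartile scaling (adjusted p = 0.0672) and with DESeq2 (adjusted p = 0.0508). CDH2 stood at 73.1, 73.0 and 78.5 CPM in siNC, at 64.9, 66.3 and 66.8 CPM in siANKRD10-1 and at 98.5, 108 and 99.1 CPM in siANKRD10-2. Its rise with siANKRD10-2 was 1.36-fold (0.45 ± 0.057, adjusted p = 7.06e-07), while the 1.13-fold fall with siANKRD10-1 (adjusted p = 0.0487) was lost in 5 of the 6 fits that left out a library, all except the one without siANKRD10-1 replicate 2 (adjusted p up to 0.187), with upper-quartile scaling (adjusted p = 0.0735) and with no filter (adjusted p = 0.0704).

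EPCAM was 1.13-fold lower in siANKRD10-2 (268.7 ± 7.46 against 304 ± 22.0 CPM, adjusted p = 0.0153), a call lost without siNC replicate 3 or siANKRD10-2 replicate 1 or 3 (adjusted p up to 0.0681) and with upper-quartile scaling (adjusted p = 0.0809). In siANKRD10-1 its log2 fold change was 0.012 with a 95% interval from -0.12 to 0.14. TGFBI was called 1.15-fold higher in siANKRD10-1 alone (84.4 ± 3.53 against 73.6 ± 3.64 CPM, adjusted p = 0.0413), and this was lost without siNC replicate 1 or 2 or siANKRD10-1 replicate 1 or 2 (adjusted p up to 0.202). CDH3 was called in neither group, with log2 fold changes of 0.039 and -0.14 (adjusted p = 0.71 and 0.0525), although the second was called without siNC replicate 3 or siANKRD10-2 replicate 1 (adjusted p down to 0.0404) and with all groups in one fit (adjusted p = 0.0494). SPARC had 1 to 33 counts and TAGLN 23 to 54 counts per library of the knockdown table, and their intervals, up to 1.70 and 0.91 on the log2 scale, were too wide to show a change at this depth.

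The siRNAs compared directly, siANKRD10-2 against siANKRD10-1, differed in 7 of the 10 genes, beside 37% of all 18832 genes called in either direction. CDH2 was 1.55-fold higher (log2 fold change 0.63 ± 0.057 SE, adjusted p = 1.09e-08) and FN1 1.17-fold higher (0.22 ± 0.056, adjusted p = 0.00278) with siANKRD10-2. VIM was 1.55-fold lower (-0.63 ± 0.095, adjusted p = 1.42e-05), TGFBI 1.16-fold lower (adjusted p = 0.0056) and EPCAM 1.14-fold lower (adjusted p = 0.0104). CD44 was 1.12-fold higher (adjusted p = 0.0228) and CDH3 1.13-fold lower (adjusted p = 0.017), calls that were lost without siANKRD10-1 replicate 1 or 3 or siANKRD10-2 replicate 3 for CD44 (adjusted p up to 0.141) and without siANKRD10-1 replicate 1 or siANKRD10-2 replicate 2 for CDH3 (adjusted p up to 0.107). The ANKRD10 counts over all transcripts did not separate the siRNA groups, with a log2 difference of -0.0017 and a 95% interval from -0.13 to 0.12. The 14 urothelial and epithelial markers summed to 5450 to 5770 CPM in siNC, 4560 to 4890 CPM in siANKRD10-1 and 3410 to 3520 CPM in siANKRD10-2. This list includes CDH1 and EPCAM themselves, so the sums contain their values. The part of the other markers in the lower CDH1 and EPCAM values was not tested.

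The ratio of N-cadherin to E-cadherin transcripts per length, often read as a cadherin switch, had a median of 0.44 in WT1 and 0.208 in KO1, and of 0.366 in WT2 and 1.03 in KO2. It was 0.384 in Vector, 0.381 in ANKRD10-1 and 0.359 in ANKRD10-2, and 0.875 in siNC, 0.963 in siANKRD10-1 and 1.52 in siANKRD10-2. Per length, only in KO2 and siANKRD10-2 did CDH2 reach or pass CDH1 in most libraries. In KO2 this came with CDH1 counts that overlapped those of WT2. It also rested on the summed exon lengths, 4950 bases for CDH2 and 6177 for CDH1. In CPM, CDH2 stayed below CDH1 in KO2 (172 to 183 against 218 to 224 CPM). In siANKRD10-2, CDH2 was above CDH1 in CPM as well (98.5 to 108 against 75.0 to 84.6 CPM). The ratio of VIM to CDH1 per length had a median of 0.0241 in WT1 and 0.364 in KO1, and of 0.0232 in WT2 and 0.246 in KO2. It was 0.279 in Vector, 0.42 in ANKRD10-1 and 0.638 in ANKRD10-2, and 0.125 in siNC, 0.199 in siANKRD10-1 and 0.139 in siANKRD10-2. The siANKRD10-2 libraries (0.118 to 0.15) overlapped those of siNC (0.117 to 0.132), and those of siANKRD10-1 (0.198 to 0.204) did not. The ratio of CDH3 to CDH1 stayed between 0.62 and 1.27 in all 30 libraries.

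**Figure D4:**
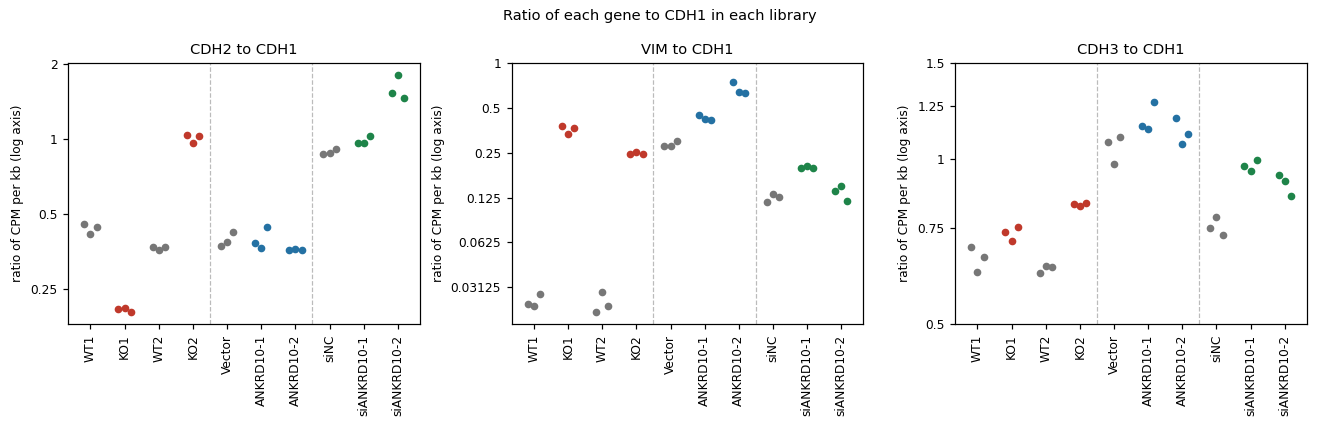
Ratio of CDH2, VIM and CDH3 to CDH1 in each library, from CPM per kb, on log axes with different ranges. Points are libraries, dashed lines separate the 3 count tables and colours mark control (grey), RBPMS-KO (red), overexpression (blue) and knockdown (green) groups. The CDH2 ratio lay at 0.201 to 0.209 in KO1 and at 0.957 to 1.03 in KO2.

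Lists of genes of these classes gave a setting for the 10. The cadherin list holds CDH1, CDH2 and CDH3 themselves, so its counts include their calls. Among 23 classical and related cadherins, 10 were tested in each knockout, with 3 higher and 5 lower in KO1 and 5 higher and 3 lower in KO2, beside 17.9% and 18.2% of all genes in KO1 and 19.3% and 19.2% in KO2. CDH13, a cadherin tied to the membrane by a lipid anchor, rose from 17.7 ± 2.16 to 49.3 ± 1.95 CPM in KO1 (log2 fold change 1.48, adjusted p = 5.46e-07) and from 16.2 ± 0.786 to 52.9 ± 2.21 CPM in KO2 (1.70, adjusted p = 1.24e-09). CDH23, a cadherin known from the hair cells of the ear, fell in both (-1.56 in KO1, adjusted p = 7.97e-05; -0.95 in KO2, adjusted p = 7.03e-06). In ANKRD10-2, 2 of 11 tested cadherins were higher, CDH13 (0.42, adjusted p = 0.00137) and CDH3, and in ANKRD10-1 edgeR called 0 of 11, with 2 lower at an unadjusted p under 0.05. In the knockdown groups, 0 of 9 were higher and 2 lower in siANKRD10-1, and 1 was higher and 1 lower in siANKRD10-2, all of them CDH1 or CDH2. Of all genes, 10.7% were called higher and 9.25% lower in ANKRD10-2, and 3.5% and 2.81% in ANKRD10-1. These shares were 5.08% and 5.52% in siANKRD10-1 and 17.6% and 18.7% in siANKRD10-2.

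Of 40 further epithelial genes (keratins, desmosome and tight junction parts, epithelial transcription and splicing factors), all 40 were tested. In the knockouts 10 were higher and 10 lower in KO1, and 13 higher and 13 lower in KO2, beside the same shares of all genes. GATA3, a transcription factor of luminal urothelium, was among the largest falls in each (log2 fold change -1.35 in KO1, adjusted p = 3.47e-07; -0.76 in KO2, adjusted p = 1.81e-07). In KO1 the basal factor TP63 fell (-0.56, adjusted p = 4.04e-06), while ELF3 (0.52, adjusted p = 3.38e-05) and the basal keratin KRT5 (0.46, adjusted p = 1.15e-05) rose. The ELF3 call was lost against all 6 WT libraries (0.25, adjusted p = 0.124). In KO2 the desmosomal PKP1 fell (-1.31, adjusted p = 4.51e-06) and OVOL1, a repressor of mesenchymal genes, rose (1.20, adjusted p = 0.000544), as did KRT7 (0.43, adjusted p = 1.64e-06). ELF3 was instead lower in KO2 (82.5 ± 1.23 against 123 ± 2.42 CPM in WT2). PKP1 was instead higher in KO1 (28 ± 0.825 against 20.8 ± 0.891 CPM in WT1). Mean KRT5 was 618 CPM in KO2 and 645 CPM in WT2, and mean KRT7 574 CPM in KO1 and 590 CPM in WT1. Mean TP63 was 226 CPM in KO2 and 236 CPM in WT2, and mean OVOL1 3.55 CPM in KO1 and 3.09 CPM in WT1. In the ANKRD10 tables the epithelial list had 3 higher and 1 lower in ANKRD10-1, 16 higher and 0 lower in ANKRD10-2, 0 higher and 8 lower in siANKRD10-1 and 3 higher and 19 lower in siANKRD10-2. The shares of all genes called higher and lower were 3.5% and 2.81%, 10.7% and 9.25%, 5.08% and 5.52%, and 17.6% and 18.7% in these groups. At an unadjusted p under 0.05 in edgeR, 2 were lower in ANKRD10-2 and 1 higher in siANKRD10-1. Its median log2 fold changes in these groups were 0.051, 0.16, -0.13 and -0.22. KRT5 moved in all 4 groups, to log2 fold changes of 0.23 in ANKRD10-1, 0.44 in ANKRD10-2, -0.40 in siANKRD10-1 and -1.06 in siANKRD10-2, and the last was the largest fall of the list (adjusted p = 2.18e-14), followed by KRT17 (-0.91, adjusted p = 1.08e-12). OVOL1 had the largest rise with ANKRD10-2 (1.04, adjusted p = 0.000286), KRT18 rose with ANKRD10-1 (0.24, adjusted p = 0.00372), and DSC2 (-0.42, adjusted p = 0.00208) and MAL2 (-0.42, adjusted p = 0.000325) fell with siANKRD10-1. KRT18 had a mean of 358 CPM in both ANKRD10-1 and ANKRD10-2, against 304 CPM in Vector. MAL2 stood at 67.3 CPM in siNC, 50.4 CPM in siANKRD10-1 and 43.6 CPM in siANKRD10-2. The serine protease ST14 was called lower with ANKRD10-1 (-0.98, adjusted p = 0.0425), at 27.3, 27.2 and 27.2 CPM against 33.6, 30.7 and 95.7 CPM in Vector. Vector replicate 3 stood apart, and the log2 fold change without it was -0.24 (adjusted p = 0.0255). The call was lost without each of the ANKRD10-1 libraries in turn (adjusted p up to 0.148), with all groups in one fit (adjusted p = 0.189) and with DESeq2 (adjusted p = 0.259). ANKRD10-2 had a like spread, with 28.9, 28.3 and 107 CPM. EVPL (0.26, adjusted p = 0.000268) and CTNNA1 (0.23, adjusted p = 0.000923) rose with siANKRD10-2.

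Of 40 further mesenchymal genes, 28 were tested in KO1 (9 higher, 8 lower, beside 17.9% and 18.2% of all genes) and 29 in KO2 (17 higher, 3 lower, beside 19.3% and 19.2%), with median log2 fold changes of 0.11 and 0.43. The collagen VI gene COL6A2 rose in both, from 14 to 38 counts per library in WT1 to 199 to 350 in KO1 (log2 fold change 3.56, adjusted p = 1.22e-05) and from 17 to 33 counts in WT2 to 96 to 142 in KO2 (2.25, adjusted p = 0.000372). COL6A1 rose in KO1 (1.37, adjusted p = 5.14e-06) and NT5E, the surface enzyme CD73 of mesenchymal stromal cells, in KO2 (2.40, adjusted p = 3.23e-10). COL6A1 was also higher in KO2 (15.1 ± 0.315 against 7.82 ± 0.24 CPM in WT2). NT5E was also higher in KO1 (33.4 ± 3.71 against 16.5 ± 0.768 CPM in WT1). LUM, a matrix proteoglycan that is also in the fibroblast marker list, fell in both, from 192 to 226 counts in WT1 to 0 to 8 in KO1 (adjusted p = 7.91e-05) and from 249 to 320 counts in WT2 to 29 to 39 in KO2 (adjusted p = 5.61e-07). CCN2 fell in KO1 (-1.15, adjusted p = 0.000275) and S100A4 in KO2 (-0.89, adjusted p = 0.0091). S100A4 was also lower in KO1 (1.29 ± 0.208 against 2.28 ± 0.245 CPM in WT1). CCN2 was instead higher in KO2 (15.1 ± 2.49 against 9.25 ± 0.636 CPM in WT2).

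Of the 40 mesenchymal genes, 38 were found in the other tables. With overexpression, 33 were tested, of which 1 was higher and 5 lower in ANKRD10-1 and 9 were higher and 2 lower in ANKRD10-2, beside 3.5% and 2.81% of all genes in the first and 10.7% and 9.25% in the second. SNAI2, the repressor Slug, rose with ANKRD10-1 (0.36, adjusted p = 0.00019), where NT5E (-0.37, adjusted p = 0.000158) and ZEB2 (-0.35, adjusted p = 0.00632) fell. SNAI2 was higher still in ANKRD10-2, at 139 ± 1.5 CPM, against 98.9 ± 4.56 CPM in ANKRD10-1 and 77.2 ± 2.8 CPM in Vector. With ANKRD10-2, the galectin LGALS1 (0.93, adjusted p = 4.72e-05) and the matrix protein THBS1 (0.85, adjusted p = 7.39e-08) rose, and CALD1 (-0.34, adjusted p = 0.00121) and TNC (-0.32, adjusted p = 0.000438) fell. The means of CALD1 (163 against 195 CPM in Vector) and TNC (399 against 441 CPM) were lower in ANKRD10-1 as well. With knockdown, 31 were tested, with 3 higher and 2 lower in siANKRD10-1 (beside 5.08% and 5.52% of all genes) and 8 higher and 7 lower in siANKRD10-2 (beside 17.6% and 18.7%). THBS1 rose with siANKRD10-1 (0.58, adjusted p = 2.45e-06) and fell with siANKRD10-2 (-0.68, adjusted p = 1.14e-10), as VIM did. LGALS1 fell with siANKRD10-2 (-0.96, adjusted p = 1.35e-05) and TNC rose (0.78, adjusted p = 1.64e-11). AXL (-0.30, adjusted p = 0.00384) and COL6A1 (-0.29, adjusted p = 0.0316) fell with siANKRD10-1, and the COL6A1 call was lost without siNC replicate 1 or 2 or siANKRD10-1 replicate 1 or 3 (adjusted p up to 0.205). AXL was as low in siANKRD10-2 (36.9 ± 1.61 CPM) as in siANKRD10-1 (37 ± 1.27 CPM), against 45.6 ± 1.3 CPM in siNC.

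The genes whose log2 CPM followed VIM most closely over the 12 knockout libraries, among 14328 genes compared, were BASP1 (Pearson r = 0.9935), TCOF1 (r = 0.9927) and VDAC1 (r = 0.9917). These points fall into WT and RBPMS-KO libraries, so r describes that split, and no p is given. BASP1, a membrane-bound signalling protein, went from 75.2 CPM in WT1 to 159.7 in KO1 and from 70.9 CPM in WT2 to 133 in KO2, a smaller change than that of VIM. VIM-AS1 is named as antisense to VIM, and the strand setting of the counting is not given in the sources used here, so their reads may not be fully separated. VIM-AS1 had 0 to 9 counts in the WT libraries and 10 to 80 in the RBPMS-KO libraries, where VIM had at least 2384 counts. In the overexpression table VIM-AS1 stood at 5.56 ± 0.706 CPM in Vector, 7.58 ± 0.242 in ANKRD10-1 and 12.3 ± 2.01 in ANKRD10-2. CDH1 lies 14608 bases after CDH3 on chromosome 16 of GRCh38, in the same direction. In KO2 CDH3 rose and CDH1 was not called, and the difference between these genes was not tested.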

How the data were processed

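Poly(A) RNA of 30 libraries was sequenced. According to the study, reads were trimmed with Cutadapt and Trimmomatic and aligned with HISAT2, with StringTie for expression. The submitters' processing notes list Trimmomatic 0.36, featureCounts, Subread 1.5.1 and GRCh38. The authors deposited whole-number counts per gene without normalization, summed over all transcripts of a gene, so isoforms of FN1, CD44 and ANKRD10 are not separated. From these counts, genes passing filterByExpr (minimum count 10, total 15) were tested in R 4.3.3 with edgeR 4.0.16 (TMM, quasi-likelihood, libraries of the compared groups only, Benjamini-Hochberg over all genes tested). The step was tested on simulated data. Levels per kb used the summed exon lengths deposited in the overexpression table. With 3 libraries per group an exact permutation test cannot go below 0.1. Alternatives were RLE and upper-quartile scaling, DESeq2 1.42.0, no filter, all groups of a table in one fit, a replicate block, leaving out each library, a fold limit (log2 fold change of 1 or more in size) and, for the knockouts, all 6 WT libraries. The members and lists were chosen with earlier results of these data known. Beside the 10 genes, those named are, per list and comparison, the 2 largest rises and 2 largest falls among called genes (50 or more normalized counts on average), and the 3 genes most like VIM. For the named list genes, the same alternatives were read after the data had been seen. Some items that these rules or lists would name are not reported here. Of 30 pairs of libraries within groups, 0 were identical, and all differed by more than sampling noise (chi-square per degree of freedom 3.85 to 16.8).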

Additional observations from a re-analysis of the deposited data

Results flagged for a closer look

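The effects on 4 of the 10 genes differed between the knockouts by a test of the difference itself, the KO1 effect minus the KO2 effect over the 12 libraries of the knockout table. The difference was -2.40 on the log2 scale for CDH2 and -2.11 for FN1, each with opposite directions in KO1 and KO2 in 3 of 3 libraries of each group. It was 0.62 for VIM, which rose in both, and -0.14 for CD44, which rose in both and whose difference was lost in 10 of the 12 fits that left out a library.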

How the results depend on the processing

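The direction and the call of VIM, CDH2, FN1, SPARC, TGFBI, EPCAM, CDH3 and CD44 in both knockouts did not change under the other scalings, DESeq2, no filter, all groups in one fit, the replicate block, all 6 WT libraries as controls or leaving out any library. A further limit on size, a log2 fold change of 1 or more up or down, left 2 of the 10 genes called in KO1, 4 in KO2, 0 in ANKRD10-1, 1 in ANKRD10-2, 0 in either knockdown group, 2 in the difference between knockouts, and 0 in WT2 against WT1, ANKRD10-2 against ANKRD10-1 and siANKRD10-2 against siANKRD10-1. With all groups of a table in one fit, 1 gene was called in ANKRD10-1 and 2 in WT2 against WT1. DESeq2 called 3 in WT2 against WT1 and 5 in ANKRD10-2 against ANKRD10-1. The cause was not tested. Leaving out each library gave 8 to 9 called genes in KO1, 8 in KO2, 1 to 2 in ANKRD10-1, 3 to 6 in ANKRD10-2, 3 to 5 in siANKRD10-1, 4 to 6 in siANKRD10-2, 3 to 4 in the difference between knockouts, 1 in WT2 against WT1, 2 to 4 in ANKRD10-2 against ANKRD10-1 and 5 to 7 in siANKRD10-2 against siANKRD10-1, with fewer libraries in each fit.

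Log2 fold changes that were near 0 or rested on few counts changed sign. CDH1 in KO2 went to 0.0014 with RLE scaling, 0.0013 with DESeq2, 3e-04 with all groups in one fit and 0.0235 against all 6 WT libraries, and TGFBI in siANKRD10-2 to 0.0281 with upper-quartile scaling. Leaving out a library gave ranges from -0.278 to 0.1217 for TAGLN in KO1, -0.0142 to 0.0088 for CDH1 and -0.0429 to 0.327 for TAGLN in KO2, -0.0106 to 0.0218 for CD44 in ANKRD10-1, -0.0763 to 0.0952 for SPARC in ANKRD10-2, -0.0292 to 0.0709 for EPCAM and -0.2535 to 0.993 for SPARC in siANKRD10-1, and -0.1593 to 0.361 for TAGLN and -0.059 to 0.0087 for TGFBI in siANKRD10-2. In the difference between knockouts they were -0.0598 to 0.0433 for TGFBI and -0.0726 to 0.0095 for EPCAM. In WT2 against WT1 they were -0.1207 to 0.1044 for VIM, -0.045 to 0.0326 for CDH3, -0.0395 to 0.036 for EPCAM, -0.036 to 0.0132 for TGFBI, -0.0227 to 0.3002 for TAGLN and -0.0464 to 0.1792 for SPARC. They were -0.0099 to 0.0744 for EPCAM in ANKRD10-2 against ANKRD10-1 and -0.5159 to 0.731 for SPARC in siANKRD10-2 against siANKRD10-1.

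Correlations of deviations between same-numbered libraries ran from -0.058 to 0.131 and were above 0.1 for all pairs in 0 of 9 comparisons. Such a cut cannot decide whether the numbers pair the samples, so counts with a replicate block are given as well. With a replicate block, 9 genes were called in KO1, 8 in KO2, 2 in ANKRD10-1, 6 in ANKRD10-2, 6 in siANKRD10-1, 6 in siANKRD10-2 and 6 in siANKRD10-2 against siANKRD10-1, where the block value of CD44 was 0.163 (adjusted p = 0.0545). Over all genes, the fold limit left 1149 of 6454 calls in KO1, 1095 of 7034 in KO2, 80 of 1291 in ANKRD10-1, 241 of 4017 in ANKRD10-2, 69 of 1991 in siANKRD10-1, 500 of 6874 in siANKRD10-2, 1059 of 4474 in the difference between knockouts, 16 of 226 in WT2 against WT1, 72 of 1455 in ANKRD10-2 against ANKRD10-1 and 514 of 6968 in siANKRD10-2 against siANKRD10-1. Leaving out a library lowered the count to 700 in ANKRD10-1, 2617 in ANKRD10-2, 949 in siANKRD10-1, 71 in WT2 against WT1 and 694 in ANKRD10-2 against ANKRD10-1. For WT2 against WT1, DESeq2 called 690 genes and edgeR without a filter 88.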
